A study of Mus musculus with 19 samples.

Results

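Metabotropic glutamate receptors are G protein-coupled receptors that bind the main excitatory transmitter of the neocortex, and 6 of their genes (Grm2, Grm3, Grm4, Grm5, Grm7 and Grm8) were followed here across the depth of the primary somatosensory cortex (S1). They were taken by name, through their Ensembl gene identifiers, and are 6 of the 24130 Ensembl genes listed in at least 1 of the S1 libraries. The tissue came from male C57BL/6 mice (C57BL/6J in the study's methods) at postnatal day 56, and the labels name no transgene or treatment for any group. Slices of S1 were cut into 6 segments from the surface to the white matter. Segment A held mostly layers 1 to 3 and B mostly layer 4, C and D divided layer 5 into an upper and a lower portion, and E and F held layer 6 and layer 6b. Poly(A) RNA of every segment but B was sequenced from 1 pool of 8 mice, and segment B from separate pools of 4 mice each (B1 and B2), so that 7 libraries were compared and only B had replicates. Per the study's methods, the segments came from the same 8 mice, and B1 and B2 were pooled by litter. Of the 19 samples in the series, the 12 from dorsal and lateral cortex were not analysed here.

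The receptors fall into groups by sequence, partner G protein and pharmacology. Group I, here Grm5, acts through Gq and phospholipase C to release calcium from internal stores and sits mainly behind the synapse. Group II (Grm2 and Grm3) and group III (Grm4, Grm7 and Grm8) act through Gi and Go, lower cyclic AMP and calcium entry, and are best known as brakes on transmitter release at the presynaptic terminal. Grm3 is also well known from glia, and Grm7 is the receptor with the lowest affinity for glutamate.

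Levels are given as FPKM, fragment counts normalized to transcript length and to the mapped fragments of the library, which allows levels of different genes to be compared per length. Each value has a deposited 95% interval that covers counting and read assignment in that library but no variation between mice. The libraries held an estimated 31300000 to 74900000 mapped fragments, taken from the ratio of deposited coverage to FPKM. This is not the number of fragments sequenced. Mitochondrial genes took from 5.03% (F) to 21.8% (A) of the summed FPKM, with 18.2% in B2 and 7.76% in B1. Because the tissue was bulk cortex, fewer cells of a type and less RNA per cell cannot be told apart in any value below. Markers fitted the labelled depth: Cux2 was at 37.9 FPKM in A and 2.82 in F, Rorb was highest in B (17.8 in B1 and 22.1 in B2), Fezf2 in C (26.0), Tbr1 in E (73.5) and Ccn2 in F (167).

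Alternative messenger RNAs were listed for Grm4, Grm5 and Grm8, and the stretches that tell the main Grm5 and Grm8 messages apart are shown first, since the isoform values below turn on them. For Grm5 the isoforms ENSMUST00000155358 and ENSMUST00000125009 differ in their coding part by 1 cassette exon of 96 bases, or 32 codons, in the part of the gene that encodes the intracellular tail (chr7:88116193-88116288, plus strand, GRCm38, from GENCODE M21). Capitals mark the cassette exon and lower case the 15 coding bases on either side.
Grm5 with the cassette: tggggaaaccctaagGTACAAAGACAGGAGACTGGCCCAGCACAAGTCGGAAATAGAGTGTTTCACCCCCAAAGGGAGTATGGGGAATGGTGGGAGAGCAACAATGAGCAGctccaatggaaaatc
Grm5 without the cassette: tggggaaaccctaagctccaatggaaaatc
For Grm8, the isoforms ENSMUST00000115323 and ENSMUST00000115324 share the end of their coding part (chr6:27285685-27285734, minus strand, GRCm38), while ENSMUST00000090512 splices past it to another last coding exon (chr6:27275645-27275694). Capitals mark the 50 bases that follow the point where they part, stop codon included.
Grm8 tail of ENSMUST00000115323 and ENSMUST00000115324: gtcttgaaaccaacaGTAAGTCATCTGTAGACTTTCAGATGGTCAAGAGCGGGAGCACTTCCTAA
Grm8 tail of ENSMUST00000090512: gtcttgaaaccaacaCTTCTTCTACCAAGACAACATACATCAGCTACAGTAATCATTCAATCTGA
The capital stretches of Grm8 hold the same base at 15 of 50 positions, and both coding parts come to 908 residues, so the forms differ in the end of the tail and not in length.

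Different patterns of level were seen among the receptors. Grm2 was concentrated in layer 4 and upper layer 5, and Grm3 and Grm8 were higher toward the deep layers. Grm4, Grm5 and Grm7 were highest in layer 4 or upper layer 5 and lower in F than in C. All receptors but Grm2 were lowest in the superficial segment. Averaged over the 7 libraries, Grm3 had the highest level (26.5 ± 9.29 FPKM, SD over libraries of different segments, n = 7), followed by Grm5 (22.6 ± 5.47), Grm2 (17.5 ± 15.5), Grm7 (11.4 ± 4.20), Grm8 (7.02 ± 5.22) and Grm4 (6.64 ± 2.39).

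**Figure D1:**
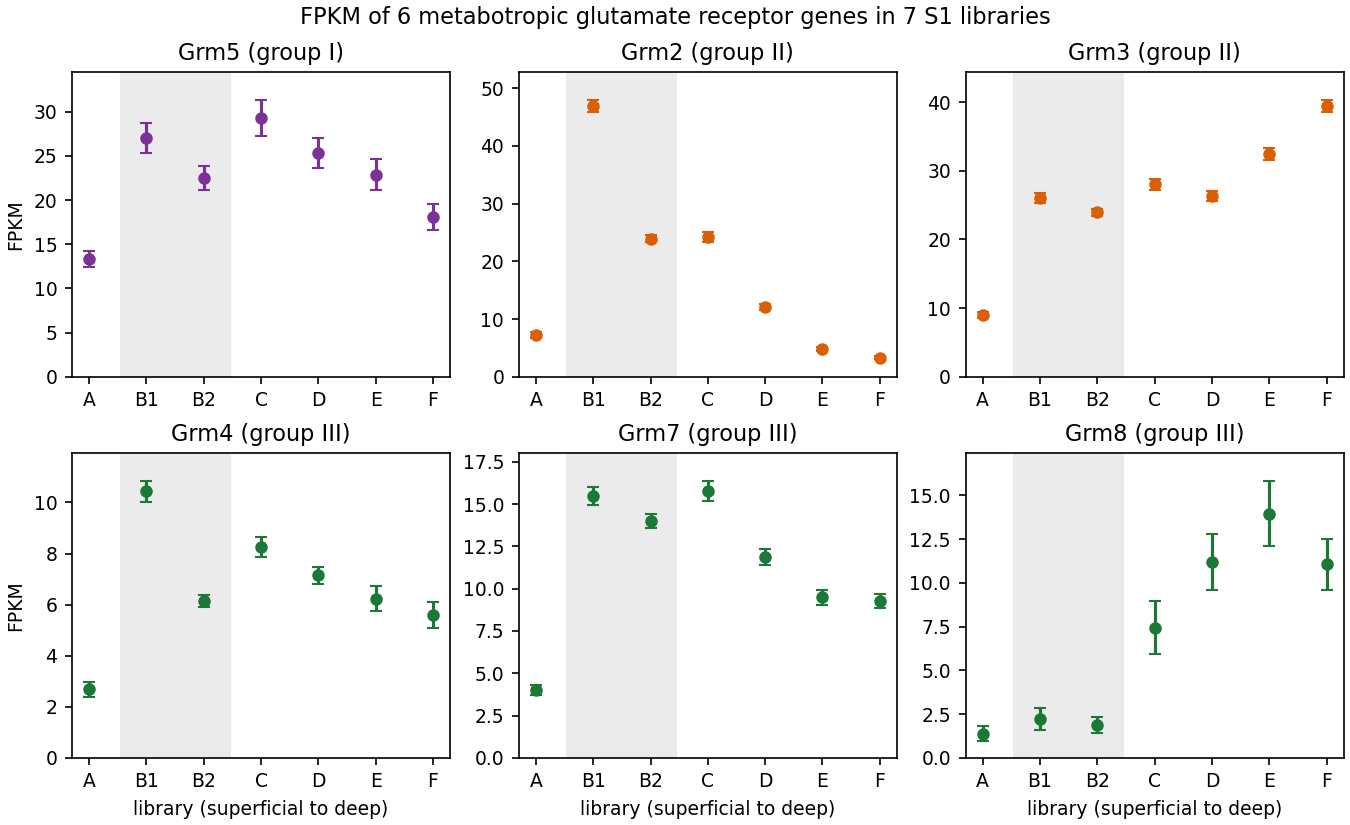
FPKM (vertical axis, each gene on its own scale from 0) of the 6 receptor genes in the 7 S1 libraries ordered from the surface to the white matter. Points are single libraries, bars are the deposited 95% intervals and the grey band holds the replicate libraries B1 and B2; Grm2 falls from 46.9 in B1 to 3.31 in F while Grm8 goes from 1.38 in A to 13.9 in E.

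Laminar change was tested with limma on log2(FPKM + 0.1) as a smooth curve of segment position (a linear and a quadratic term), over the 17844 genes whose mean FPKM was 0.1 or more. At a Benjamini-Hochberg adjusted p under 0.05, 36.5% of these genes were called, and 4 of the 6 receptors were called (Grm2, Grm3, Grm5 and Grm8). The fitted A minus F was the curve at the position of A minus that at F. Where A or F was left out, that end of the curve was extrapolated. The test was of the whole curve and not of this difference. The median fitted difference of A minus F over all genes was -0.39 on the log2 scale, and it was 0.01 when libraries were scaled by the median of ratios, so that differences of A minus F are read against that shift.

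Grm5 encodes the group I receptor mGlu5, the main group I receptor of forebrain neurons (chr7:94750952-95283417 in mm9, the build of the files). Its level was 13.3 FPKM in A, 27.0 and 22.5 in B1 and B2, 29.3 and 25.4 in C and D, and 22.9 and 18.1 in E and F. The order ran from C at the top to A at the bottom, and the intervals of the highest libraries C and B1 overlapped. B1 and B2 averaged 24.8 ± 3.19 FPKM (SD, n = 2), a spread that contains the levels of D and E. The fitted curve peaked in D and passed the test (limma, adjusted p = 0.0318), but its ends differed little, with A minus F at -0.18 ± 0.23 (SE, log2 scale), and the sign of that small difference turned under other scalings (0.24 with the median of ratios, 0.14 on the pan-neuron scale). The call for Grm5 was lost without A (limma, adjusted p = 0.141), and also without B2 (0.0598), C (0.104), D (0.0554), E (0.0682) or F (0.0510). It was lost as well with the median of ratios (0.0521), on the pan-neuron scale (0.444), with a linear trend only (0.817) and with 6 segments as a factor.

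Grm2 encodes mGlu2, a group II receptor found mainly on neurons, where it limits glutamate release (chr9:106547216-106558413, mm9). It was at 7.24 FPKM in A, 46.9 and 23.9 in B1 and B2, 24.2 and 12.1 in C and D, and 4.86 and 3.31 in E and F. Both layer 4 libraries lay above every library but C, whose interval overlapped that of B2, and from C downward each segment lay below the one above it. The highest segment exceeded the lowest 10.7-fold when the layer 4 libraries were averaged (35.4 ± 16.2 FPKM, SD, n = 2). The test called the curve (limma, adjusted p = 0.0288), with a fitted A minus F of 2.40 ± 0.73 (SE, log2 scale). The measured log2 ratio of A to F was smaller, at 1.13 (2.19-fold). The fitted curve peaked in C, although the average of the layer 4 libraries was higher. The layer 4 libraries themselves differed 1.96-fold, a log2 difference of 0.97 that exceeded that of 87.7% of 17373 genes and compares with a median of 0.35. With B2 alone standing for layer 4 the highest segment was C, and the call was lost without B2 (limma, adjusted p = 0.0707), C (0.0706) or E (0.0542). It was lost as well with no filter on low values (0.0507), with a linear trend only (0.128) and with 6 segments as a factor.

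Grm3 encodes mGlu3, the group II receptor that both neurons and astrocytes make (chr5:9485236-9725352, mm9). Its level was 9.02 FPKM in A, 26.1 and 23.9 in B1 and B2, 28.0 and 26.3 in C and D, and 32.5 and 39.4 in E and F. It was therefore lowest in the superficial segment, nearly level from layer 4 to lower layer 5, where D and B1 overlapped, and highest in the deepest segments. The difference between highest and lowest was 4.37-fold, and B1 exceeded B2 only 1.09-fold. The fitted A minus F was -1.51 ± 0.37 (SE, log2 scale; limma, adjusted p = 0.0305). The direction held in each of 19 alternative settings, between -2.12 and -0.57, but the call held in only 11 of them. Adjusted p (limma) was 0.0916 with the median of ratios, 0.0612 with mitochondrial genes left out and 0.0562 on the pan-neuron scale. It was 0.0573 with a linear trend only, 0.0897 without A, 0.0657 without C and 0.0653 without E. The call was also lost with 6 segments as a factor.

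Glial markers moved with depth beside Grm3. All 7 genes of the oligodendrocyte list were called with higher values in F, and their summed level went from 316 FPKM in A to 12119 in F. Of 8 astrocyte genes 4 were called, 3 of them with A minus F below 0 (2 with the median of ratios). The summed level of all 8 stayed between 462 FPKM (E) and 638 (F). The largest part of that sum was Aldoc, at 421 FPKM in A and 296 in F. The geometric mean of the 8 genes, which weighs them alike, was 25.2 FPKM in A and 45.6 in F. In the libraries between, it lay from 27.3 (B2) to 31.7 (B1). No gene of either list was at 0 in a library, and their part in the level of Grm3 was not tested.

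Grm4 encodes mGlu4, a group III receptor best known from parallel fibre terminals of the cerebellum (chr17:27559332-27650286, mm9). It was at 2.68 FPKM in A, 10.4 and 6.14 in B1 and B2, 8.25 and 7.14 in C and D, and 6.23 and 5.59 in E and F. The replicates of layer 4 bracketed C, D and E, and the intervals of B2, E and F overlapped, so that A lay below and B1 above all other libraries. The trend was not called (A minus F -0.40 ± 0.44, SE, log2 scale; limma, adjusted p = 0.119). It was called without B1 (adjusted p = 0.0134) and after a GC correction (0.0212).

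Grm7 encodes mGlu7, which sits in the active zone of presynaptic terminals (chr6:110595862-111517224, mm9). Its level was 3.99 FPKM in A, 15.5 and 14.0 in B1 and B2, 15.8 and 11.9 in C and D, and 9.49 and 9.24 in E and F. The values fell from C to D to E by intervals that did not overlap, E and F overlapped, and B1 and B2 differed only 1.11-fold. Both ends of the series lay below its middle, the fitted A minus F was -0.33 ± 0.47 (SE, log2 scale) and the trend was not called (limma, adjusted p = 0.0963). Without B1 it was called with the same sign (-0.56; limma, adjusted p = 0.0498). Without F it was also called (adjusted p = 0.0408), and the curve extrapolated to F gave an A minus F of 0.91. The measured log2 ratio of A to F was -1.21.

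Grm8 encodes mGlu8, a presynaptic group III receptor with high affinity for glutamate (chr6:27225121-28084545, mm9). It was at 1.38 FPKM in A, 2.24 and 1.87 in B1 and B2, 7.43 and 11.2 in C and D, and 13.9 and 11.1 in E and F. The 3 libraries of layers 1 to 4 had overlapping intervals and lay below the 4 libraries of layers 5 to 6b, with no overlap between these sets. Among the deep libraries C was below D, E and F, and those 3 overlapped each other. B1 and B2 averaged 2.05 ± 0.26 FPKM (SD, n = 2). Grm8 had the strongest laminar trend of the 6 genes, with a fitted A minus F of -3.52 ± 0.42 (SE, log2 scale; limma, adjusted p = 0.00443). It was called in 17 of 18 alternatives, with A minus F between -4.53 and -2.90; the exception was the fit with 6 separate segments, which called no gene (adjusted p = 0.305 for Grm8). The deposited intervals of Grm8 were the widest of the 6, up to 53.3% of its mean level. The study classified only genes for which this width was at most 50%, and Grm8 alone of the 6 was above it. Grm8 was therefore absent from the setting restricted to classifiable genes, which leaves it 18 alternatives.

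**Figure D2:**
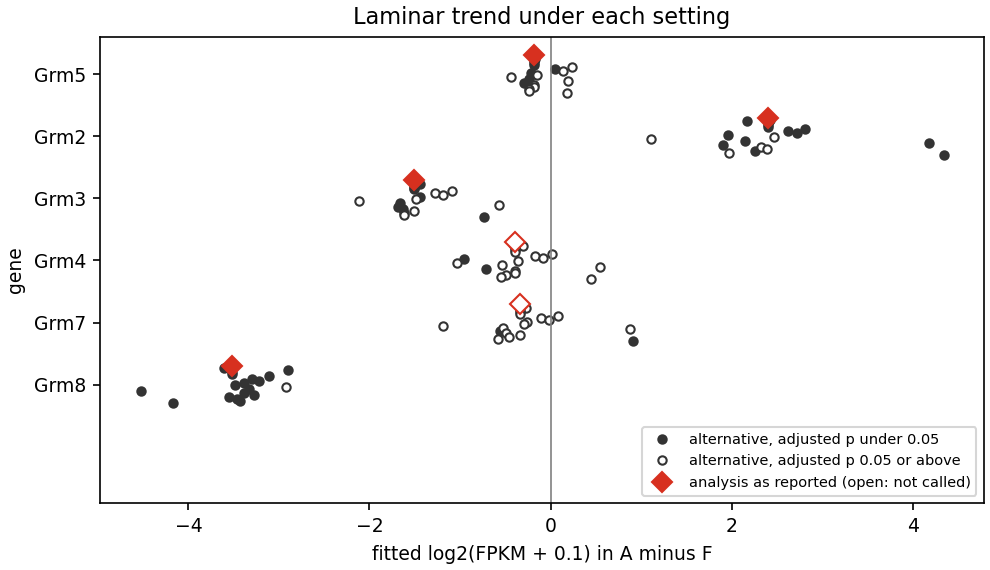
Fitted difference of A minus F on the log2(FPKM + 0.1) scale (horizontal axis) for each receptor gene (vertical axis). In the settings without A or without F, the curve was extrapolated to that end. Red diamonds are the reported values (filled where called by limma, open where not) and circles are the alternative settings (filled where the adjusted p was under 0.05); Grm8 stays between -4.53 and -2.90 while Grm4, Grm5 and Grm7 lie on both sides of 0.

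A comparison of intervals between neighbouring segments gave a finer view of where levels changed, although it takes no account of mice. A difference was called when the 95% intervals did not overlap, and for layer 4 both B1 and B2 had to lie on the same side. Between the replicates B1 and B2 themselves, 48.5% of all 17844 genes were called by this rule, and so were 5 of the 6 receptors, each higher in B1 (all but Grm8). A call between segments is therefore by itself no sign of a difference beyond that between libraries of the same segment. B1 and B2 also differed in litter, while the other segments shared the same mice.

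From A to B, 5 receptors were higher in both layer 4 libraries, and only Grm8 overlapped. In this step 49.6% of all genes were called, and 29.8% of all genes were lower in A, the direction of these receptors. From B to C, Grm3 and Grm8 were higher in C and the other 4 overlapped (25.1% of genes called). In that step Grm3 overlapped with the median of ratios, with mitochondrial genes left out and with widened intervals, and Grm2 was lower in C with the first 2 of these settings. From C to D all 6 were called, 5 of them lower in D and Grm8 higher, where 22.6% of genes were called. The differences were small for Grm3 (log2 C over D of 0.09), Grm4 and Grm5 (0.21 each), larger for Grm7 (0.41) and largest for Grm2 (1.00), and that of Grm8 was -0.59. From D to E, Grm2, Grm4 and Grm7 were lower and Grm3 was higher (30.9% of genes called). From E to F, Grm2 and Grm5 were lower and Grm3 was higher (39.6% of genes called). Between the ends of the series, A was below F for 5 receptors and above it for Grm2. This contrast called 71.1% of all genes, with A below F for 47.6%. With the median of ratios, Grm5 overlapped between A and F and the other 5 kept their direction.

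The receptor groups made up different shares of the summed FPKM of the 6 genes. Group II was the largest share in each library, at 43.3% in A, 56.96% and 51.8% in B1 and B2, 46.2% and 40.9% in C and D, and 41.5% and 49.3% in E and F. The group I gene Grm5 held 35.3% in A and 20.8% to 27.0% in the other libraries. Group III held 21.4% in A, 22.0% and 23.8% in B1 and B2, 27.8% and 32.1% in C and D, and 33.0% and 29.9% in E and F. The share of group III was thus lowest in the superficial libraries A, B1 and B2 and highest in lower layer 5 and layer 6, and the share in B1 and B2 differed less than either did from C. The summed level itself was 37.6 FPKM in A and 86.7 to 128 in the other libraries. The group I share given here counts Grm5 alone. Grm6, which serves the retina, was listed at under 0.1 FPKM in every library.

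**Figure D3:**
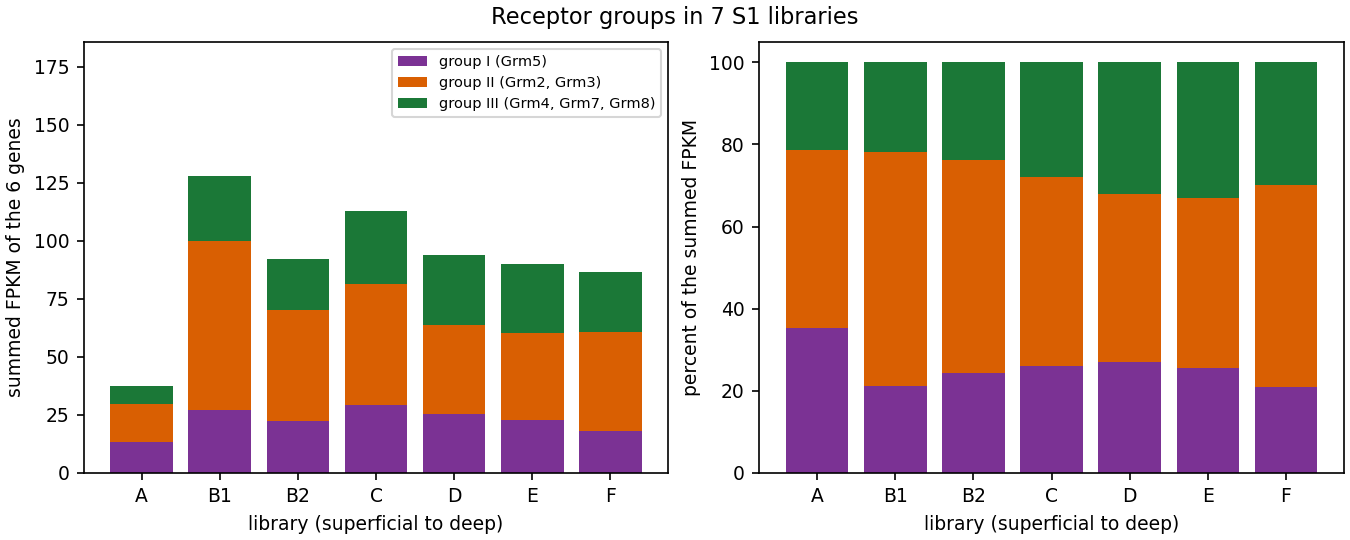
Summed FPKM of the 6 receptor genes by group (left, vertical axis from 0) and the percent of that sum in each group (right) for the 7 S1 libraries. Bars are stacked and single libraries carry no error bar; group III grows from 21.4% in A to 33.0% in E.

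Within group II the level of Grm2 relative to Grm3 fell from layer 4 downward, and Grm2 was the higher of the pair in B1 alone. The ratio of Grm2 to Grm3 was 0.803 in A, 1.80 and 0.999 in B1 and B2, 0.863 and 0.461 in C and D, and 0.150 and 0.0839 in E and F. Grm2 thus made up 64.2% of group II in B1 and 50.0% in B2, but 7.74% in F. Since both genes come from the same library, the ratio of Grm2 to Grm3 does not depend on how libraries are scaled. The replicates B1 and B2 both lay above all other libraries. GC content of the transcripts differed, at 57.1% for Grm2 and 47.6% for Grm3. After a GC correction the fitted A minus F of Grm2 was 1.96 rather than 2.40 (log2 scale). The bearing of GC content on the ratio was not tested.

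Group III showed the opposite turn. Grm8 stood to Grm7 at 0.345 in A, 0.144 and 0.134 in B1 and B2, 0.471 and 0.941 in C and D, and 1.47 and 1.20 in E and F. In D and in F the intervals of Grm8 and Grm7 overlapped. The share of Grm8 in group III went from 7.95% in B1 and 8.49% in B2 to 47.0% in E. The ratio of Grm4 to Grm7 varied less, between 0.439 (B2) and 0.674 (B1), and the replicate libraries held its lowest and highest values.

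**Figure D4:**
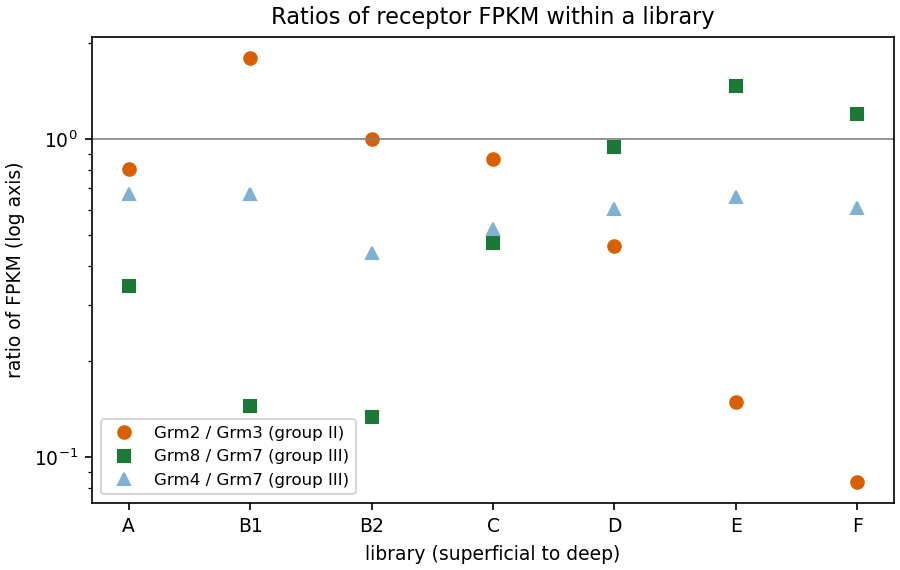
Ratios of FPKM between receptor genes of the same library (vertical log axis) for the 7 S1 libraries from the surface to the white matter. Points are single libraries and the grey line marks equal levels; Grm2 over Grm3 falls from 1.80 in B1 to 0.0839 in F and Grm8 over Grm7 goes from 0.134 in B2 to 1.47 in E.

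The order of the receptors changed with the segment. Grm5 ranked first in A, Grm2 in B1, and Grm3 in D, E and F, although it overlapped with Grm5 in D. In B2 the intervals of Grm3, Grm2 and Grm5 followed on each other with overlap (23.9, 23.9 and 22.5 FPKM), and in C those of Grm5 and Grm3 overlapped (29.3 and 28.0). Grm8 ranked last from A to C but at rank 3 in E and F, while Grm2 ranked last in E and F. In F the intervals of Grm8 and Grm7 overlapped (11.1 and 9.24 FPKM). In C the lowest pair, Grm4 and Grm8, overlapped, and in D the intervals of Grm2, Grm7 and Grm8 followed on each other with overlap (12.1, 11.9 and 11.2 FPKM).

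Isoforms gave a further readout for Grm4, Grm5 and Grm8. Grm2, Grm3 and Grm7 had 1 listed isoform each. In the transcript table, where limma called 10.5% of 33551 transcripts, 4 member isoforms were called, from Grm5 and Grm8. Transcripts were left out of a library's list when their level was low beside that of the locus's main transcript, so that an isoform missing from a library is not known to be absent.

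For Grm5, ENSMUST00000125009, which lacks the cassette, was at 9.22 FPKM in A, 10.3 and 13.1 in B1 and B2, 11.6 and 10.1 in C and D, and 8.92 and 4.50 in E and F. It fell toward F, with A minus F of 0.93 ± 0.22 (SE, log2 scale; limma, adjusted p = 0.0418). The form with the cassette, ENSMUST00000155358, was at 1.58 in A, 7.95 and 1.99 in B1 and B2, 5.40 and 3.98 in C and D, and 2.74 and 5.97 in E and F. It was not called (adjusted p = 0.636), and the replicates B1 and B2 held its highest value and its lowest value outside A. The ratio of the cassette form to ENSMUST00000125009 was 0.172 in A, 0.770 and 0.152 in B1 and B2, 0.465 and 0.394 in C and D, and 0.307 and 1.33 in E and F. The ratio was highest in F, and the values of B1 and B2 span those of A, C, D and E. ENSMUST00000107263 also lacks the cassette in GENCODE M21. Its deposited model is longer, at 6777 nt against 3516 nt, and whether that model lacks the cassette is unknown here. Against the sum of ENSMUST00000125009 and ENSMUST00000107263, the ratio was 0.135 in A, 0.510 and 0.120 in B1 and B2, 0.344 and 0.268 in C and D, and 0.210 and 0.827 in E and F. In no library did ENSMUST00000155358 exceed that sum. ENSMUST00000061910 is not in GENCODE M21, and whether it holds the cassette is unknown here. It was at 4.89 FPKM in F, so that the balance of all forms with and without the cassette is not known. Part of the F sequencing used longer reads than the other libraries, and the bearing of read length on this ratio was not tested.

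The remaining Grm5 isoforms were ENSMUST00000107263, between 2.48 FPKM (A) and 5.26 (B1) and not called (adjusted p = 0.160), and ENSMUST00000061910. The latter was not listed in A and ran from 3.49 (B1) to 8.22 (C) in the other libraries. Its call (A minus F -3.98 ± 1.03, SE; limma, adjusted p = 0.0471) included the 0 entered for A. It was lost with a pseudocount of 0.01 (adjusted p = 0.0668), with the median of ratios (0.0704) and without any library but B1 (0.203 without A, 0.0718 without B2, 0.120 without C, 0.0916 without D, 0.101 without E and 0.0793 without F). The call of ENSMUST00000125009 was likewise lost without any library but B1 (adjusted p = 0.138 without A, 0.0792 without B2, 0.115 without C, 0.103 without D, 0.0861 without E and 0.421 without F).

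For Grm8, the 3 main isoforms had their highest values in E or F, and a minor one, ENSMUST00000131897, was listed in C alone (0.569 FPKM). ENSMUST00000090512 was at 0.272 FPKM in A, 1.30 and 0.513 in B1 and B2, 3.10 and 4.66 in C and D, and 5.57 and 6.39 in E and F (A minus F -4.24 ± 0.51, SE; limma, adjusted p = 0.0279). ENSMUST00000115323 was at 0.156 in A, 0.670 and 0.448 in B1 and B2, 1.21 and 3.65 in C and D, and 4.44 and 2.96 in E and F (-4.03 ± 0.45, adjusted p = 0.0268). ENSMUST00000115324 was at 0.947 in A, 0.267 and 0.906 in B1 and B2, 2.44 and 2.87 in C and D, and 3.93 and 1.72 in E and F and was not called (-2.15 ± 1.00, adjusted p = 0.278). Both calls kept their sign in each of 11 alternatives and were lost when any library but B1 was left out, for example without A (adjusted p = 0.135 and 0.106).

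The deposited model of ENSMUST00000090512 has the same length as in GENCODE M21 (2830 nt). Those of ENSMUST00000115323 (3854 nt against 3856 in M21) and ENSMUST00000115324 (3306 against 3299) differ. Their tails were taken to be those of M21, which was not checked. Summed by coding tail, the tail of ENSMUST00000090512 made up 19.8% of the 3 Grm8 isoforms in A, 58.1% and 27.5% in B1 and B2, 45.9% and 41.7% in C and D, and 40.0% and 57.7% in E and F. The replicates of layer 4 again nearly span this range, so that the rise of Grm8 in the deep layers was seen for both tails and no laminar change of their balance could be told from the spread within layer 4. For Grm4, ENSMUST00000118489 was listed only in A (0.283 FPKM), E (0.471) and F (0.533), beside the main isoform ENSMUST00000118161 at 2.40, 5.75 and 5.06.

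**Figure D5:**
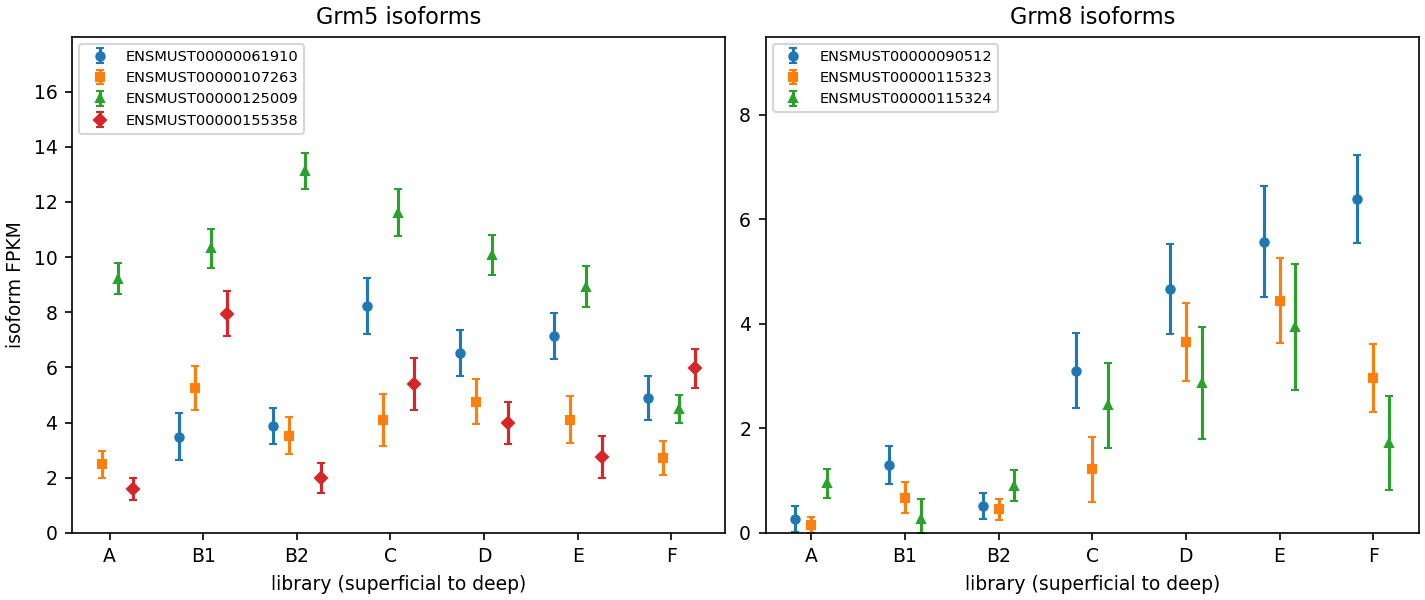
Isoform FPKM (vertical axes from 0) of Grm5 (left) and Grm8 (right) in the 7 S1 libraries, with the deposited 95% intervals; an isoform not listed in a library has no point. The cassette form ENSMUST00000155358 differs between the replicates B1 (7.95) and B2 (1.99), and the 3 Grm8 isoforms are all higher in D and E than in A, B1 and B2.

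A rule for isoforms that changed in opposite directions (one higher in the first library and another higher in the second, both by intervals that did not overlap) was met by Grm4, Grm5 and Grm8 in at least 1 of 20 pairs of different segments. Of 7108 genes with several isoforms 78.4% met it, and 34.8% met it between B1 and B2, as Grm5 did. For Grm5 it was met in 10 pairs of different segments. For Grm4 it was met in 11 pairs but in none when both isoforms had to be listed in both libraries, and for Grm8 in 1 pair (A against B1).

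Genes of the receptor pathways were read as lists, at their fitted A minus F. Of 37 genes on 5 lists, each of which was measured, 19 were called, 5 with A minus F above 0 and 14 below 0, beside 8.19% and 28.4% of all genes in these directions (36.5% in all). With the median of ratios 13 were called, 6 above 0 and 7 below 0, and the share of calls below 0 over all genes went from 77.6% to 54.4%. The median of the 37 genes for A minus F was -0.35 beside -0.39 for all genes. Of 6 group I transduction genes 3 were called, among them Gna11, a Gq-type subunit, at 0.56, and Itpr1, the calcium release channel of the internal stores, at -1.20 (1 to 4 called with 1 library left out, the fewest without A, D or E). Plcb4, a phospholipase C, had the highest value of that list, 0.58, but was not called (adjusted p = 0.392).

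Of 7 postsynaptic scaffold genes 2 were called, Homer2 at 0.81 and Homer3 at -0.69, which encode proteins that bind the tail of group I receptors. With the median of ratios 1 was called, and without A none was (limma, 0 of 7, and 2 at an unadjusted p under 0.05). Shank3 had the highest value, 0.87, and was not called (adjusted p = 0.233). Of 11 genes of group II and III transduction 7 were called. Gnai1, Gnai3, Gnao1, Kcnj3 and Adcy1 had values between -1.97 and -0.81, while Gnai2 was at -0.04 ± 0.18 (SE), with 86.9 FPKM in A, 92.0 in F and 54.2 in D. The count was 5 with the median of ratios and 2 without A. Gnai3, an inhibitory G protein subunit, was lowest at -1.97, and Rgs4, which speeds the shut-off of these G proteins, was highest at 2.19; Rgs4 was at 195 FPKM in A, 267 in B1, 336 in B2 and 48.7 in F.

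Of 4 partners of group III receptors 3 were called: Elfn1, a postsynaptic protein that recruits presynaptic mGlu7, was at 0.80 and Pick1 and Grip1, which bind receptor tails, were at -0.79 and -1.06. The count was 1 with the median of ratios or with mitochondrial genes left out and 0 without C or without F (limma, 3 and 1 at an unadjusted p under 0.05). Of 9 genes of glutamate supply and clearance 4 were called, and 3 to 5 with 1 library left out. Slc17a6, the vesicular transporter VGLUT2, was highest at 3.28, with 7.73 FPKM in B1, 7.86 in B2 and 0.366 in F, and Folh1, which cleaves the transmitter N-acetylaspartylglutamate, was lowest at -2.60. Slc1a1, a neuronal glutamate transporter, was at -1.12.

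The other marker lists were read in the same way. Called with limma were all 5 layer markers, 4 of 5 pan-neuron genes (3 with A minus F below 0), 3 of 4 excitatory neuron genes (1 below 0), 5 of 6 interneuron genes (3 below 0, of which Slc32a1 was at -0.01 ± 0.24, and 2 with the median of ratios), 1 of 2 oligodendrocyte precursor genes and 3 of 4 microglia genes (all below 0), and 1 of 4 endothelium genes (above 0). Of 5 striatum markers 4 were called, all with A minus F below 0, with a summed level of 24.4 FPKM in C, 51.2 in A and 74.0 in F. None of these genes was at 0 in a library, and the part of these cell types in the receptor levels was not tested.

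The genes most like each receptor in their distribution over the 7 libraries were taken by the Euclidean distance between shares of summed FPKM, among protein-coding genes with narrow intervals whose mean FPKM was 1 or more (9188 compared, and 9189 for Grm8). For Grm2 these were Kcnh5, a potassium channel (distance 0.0504), and Adra1d, an adrenergic receptor (0.0539), and both were also highest in B1 (20.9 and 46.5 FPKM). For Grm3 they were Tppp (0.0117), a tubulin-binding protein made in quantity by oligodendrocytes, and Ptprg (0.0229), a receptor phosphatase. Tppp went from 39.7 FPKM in A to 162 in F. For Grm8 they were Otx1 (0.0308), a homeobox gene of deep-layer neurons, and Htr1f (0.0343), a serotonin receptor, which were highest in E at 5.90 and 3.11 FPKM. For Grm5 they were Tmem25 (0.0200) and Htr5a (0.0225), for Grm4 Fgfr3 (0.0215) and Lmtk2 (0.0295), and for Grm7 Nuak1 (0.0356) and Lhfp (0.0364). Fgfr3, a growth factor receptor of astrocytes, was at 28.1 FPKM in B1 and 16.3 in B2, so that it shared the difference between these replicates with Grm4. Among the receptors, Grm4 and Grm7 were nearest to each other (0.0593), and Grm2 and Grm8 were farthest apart (0.507).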

How the data were processed

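Per the labels and the study's methods, the authors mapped paired reads to mm9 with TopHat 1.0.13 and estimated FPKM values with 95% intervals for Ensembl release 57 genes and transcripts with Cufflinks 0.8.3, and these were deposited without counts. The deposited transcript coverage (signal) was used only to estimate fragments per library from its ratio to FPKM, for 2 ends of 50 nt (some F reads were longer). Gene symbols and sequences came from GENCODE M21 (GRCm38) by identifier, and its models of ENSMUST00000155358 and ENSMUST00000125009 are longer than the deposited ones by exactly their leading exons (1 and 3), which lie before the cassette; that of ENSMUST00000107263 is shorter. Trends were fitted with limma 3.58.1 (R 4.3.3), with trended eBayes, a linear and a quadratic term of segment position, 4 residual degrees of freedom, a pseudocount of 0.1 FPKM, a mean of at least 0.1 FPKM and Benjamini-Hochberg adjustment over all genes. The procedure was tested on simulated data. The p-values rest on single pools per segment apart from B. Named were all members, isoforms with at least 10% of their gene in a library, the 2 most alike genes per member, and the extreme genes of each list; called genes of the lists were added after their values were seen, and some genes of the lists are not reported here by name. Members and lists were chosen with earlier results of these data known. Alternatives were pseudocounts, filters, scalings (median of ratios, mitochondrial genes left out, pan-neuron genes), a GC correction, other curves, widened intervals and leaving out each library. Assembled transcript models and the authors' dorsal and lateral samples were not used here.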

Additional observations from a re-analysis of the deposited data

How the results depend on the processing

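The count of genes called by the trend test (6521) was 2662 with a linear trend only and 0 with 6 segments as a factor (limma, 1 residual degree of freedom; 2881 genes had an unadjusted p under 0.05, against 8806 in the reported fit), and it ranged from 2121 (without A) to 9236 when 1 library was left out. Receptors called (4 of 6) were 2 with the median of ratios, 2 on the pan-neuron scale, 1 with a linear trend only and 0 with 6 segments as a factor, and 1 (without C or E) to 6 (without B1) with 1 library left out. Member transcripts called (4) ranged from 0 to 5 with 1 library left out. The fitted A minus F of Grm5 changed sign to 0.24 with the median of ratios, 0.044 with mitochondrial genes left out and 0.14 on the pan-neuron scale, and it ranged from -0.30 to 0.19 with 1 library left out (0.19 without A and 0.18 without F). The values without A and without F were extrapolated at the end left out. With intervals widened 2 times, receptor calls between neighbouring segments went from 20 to 13. Of all genes, 10.5% (C against D) to 32.7% (A against B) were then called in these steps. Receptor calls between B1 and B2 went from 5 to 2, beside 28.8% of all genes. Receptors with opposed isoforms went from 3 to 1, beside 51.6% of 7108 genes. With classifiable transcripts only, that count was also 1, beside 77.8% of 1839 genes. Requiring isoforms to be listed in both libraries of a pair, a setting chosen after seeing the data, left 2 receptors, beside 41.5% of 7108 genes. The cause of these changes was not tested. Where libraries were left out or segments fitted separately, the number of samples or of residual degrees of freedom was also smaller. With 1 pool per segment outside B, the spread between pools of mice was known only for layer 4. No spread between single mice was measured, and the depth of the libraries does not lessen these limits. Isoform levels of Grm8 in A, B1 and B2 were at most 1.30 FPKM, where the intervals were wide.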
